A study of Rattus norvegicus with 10 samples.

Results

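The genes described are 36 molecular chaperones, folding enzymes and regulators of the heat shock and unfolded protein responses, chosen by name, with every probe set whose platform annotation gives one of them as its only gene symbol. Of the 36, 32 had such a probe set, among 14217 genes of the array with one, and they had 47 probe sets between them. The tissue was the nucleus tractus solitarii (NTS), where nerve fibres from baroreceptors and other viscera reach the brainstem. Male spontaneously hypertensive rats (SHR), inbred rats whose blood pressure rises with age, were set against male Wistar-Kyoto rats (WKY), its normotensive control. All rats were 10 to 13 weeks old and no treatment is named, and each strain has 5 Affymetrix Rat 230 2.0 arrays. The design text calls the arrays independent biological replicates and the sample descriptions name 5 animals for a sample, so an array may hold 1 animal or a pool of 5. The p-values therefore measure the spread between these samples, and the number of arrays limits the precision. The comparison asks how chaperone and stress response transcripts of the NTS differ by strain.

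Chaperones bind unfolded proteins and help them reach or keep their fold, and each compartment of the cell has its own set. In the cytosol, HSP70 and HSP90 machines work with J proteins and small heat shock proteins, and heat shock factor 1 (HSF1) raises their transcription when unfolded protein builds up. In the endoplasmic reticulum (ER), the sensors IRE1, PERK and ATF6 start the unfolded protein response (UPR), through which the transcription factors XBP1, ATF4 and ATF6 raise ER chaperones, foldases and genes of ER-associated degradation. Mitochondria hold a separate HSP70 and the HSP60 and HSP10 chaperonin. Long-lived cells such as neurons and glia depend on these systems to clear misfolded protein.

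Both responses act through short promoter sequences, which were read from the RefSeq promoter table of GRCr8 over the 250 bases before each gene's start. The table held 27 of the 36 genes, 26 of them on the array with a probe set of their own, and the ER stress element and the heat shock element are shown because the UPR and HSF1 are known to act through them. The complete ER stress element, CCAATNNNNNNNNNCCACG on either strand, was found in 6 of the 27 genes and in 0.0657% of the 33469 promoters searched. The matches, with the fixed letters in capitals and read in the direction of the element, were as follows.
Hspa5: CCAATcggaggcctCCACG
Hsp90b1, first: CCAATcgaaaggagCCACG
Hsp90b1, second: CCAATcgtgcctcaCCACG
Dnajc3: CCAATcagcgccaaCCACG
Calr: CCAATcagggtcgaCCACG
Canx: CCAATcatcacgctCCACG
Xbp1: CCAATcgcagacggCCACG
A heat shock element of 3 alternating units, GAANNTTCNNGAA on either strand, was found in 4 of the 27 genes (Hspa8, Hsph1, Hspd1 and Hspe1) and in 0.663% of all promoters. Hspd1 and Hspe1 lie head to head, their windows share 211 bases, and the same overlapping pair of matches counts for both.
Hsph1: GAActTTCcaGAA
Hspd1 and Hspe1, first: GAAggTTCtaGAA
Hspd1 and Hspe1, second: GAAccTTCcgGAA

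The shorter element of 2 units, GAANNTTC, lies within the longer one; it was found in 11 of the 27 genes and in 7.23% of all promoters. One of the 11 is Hspb8, the member that was lower in SHR, and its upstream window is shown whole with the 2 units in capitals (GRCr8, chr12:45837058-45837307, + strand). The windows of Hspa5, with its ER stress element in capitals (chr3:38452766-38453015, + strand), and of Hspe1, with the overlapping 3-unit matches in capitals (chr9:64084077-64084326, + strand), are given for comparison.
Hspb8: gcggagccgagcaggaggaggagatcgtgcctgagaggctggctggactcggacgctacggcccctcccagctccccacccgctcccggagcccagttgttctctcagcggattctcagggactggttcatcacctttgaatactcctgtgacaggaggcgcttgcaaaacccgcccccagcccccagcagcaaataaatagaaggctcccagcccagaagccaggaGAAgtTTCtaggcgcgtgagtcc
Hspa5: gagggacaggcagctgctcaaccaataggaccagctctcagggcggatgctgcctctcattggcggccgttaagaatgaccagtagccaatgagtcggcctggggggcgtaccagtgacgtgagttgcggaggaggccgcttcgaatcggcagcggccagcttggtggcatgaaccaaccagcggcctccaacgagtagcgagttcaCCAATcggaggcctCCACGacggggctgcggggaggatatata
Hspe1: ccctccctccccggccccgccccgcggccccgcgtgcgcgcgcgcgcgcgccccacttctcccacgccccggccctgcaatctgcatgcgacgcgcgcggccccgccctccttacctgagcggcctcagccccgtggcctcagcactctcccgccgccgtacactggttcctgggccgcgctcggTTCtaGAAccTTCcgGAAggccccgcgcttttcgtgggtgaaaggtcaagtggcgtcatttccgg
The other motifs searched were the unfolded protein response element TGACGTGG, found in Bag3 alone of the 27 genes and in 0.52% of all promoters, and the amino acid response element TGATGNAAT, found in 0 of the 27 and in 0.944%. A match is a description of the letters and not evidence that a factor binds there.

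Most of the chaperone and UPR transcripts differed little between SHR and WKY. Atf6, the ER membrane protein whose cleaved fragment is a UPR transcription factor, was higher in SHR, and Hspb8, a small heat shock protein, was lower in SHR. No probe set of the other 30 measured members passed the test. Of the 47 probe sets, 43 passed the filter on dim probe sets, and each of the 32 genes kept at least 1. Values are the authors' scaled signals, tests and differences are on log2(signal + 16), which understates changes of low signals, and the threshold was a Benjamini-Hochberg adjusted p below 0.05 over 18846 probe sets (limma).

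Of the 43 probe sets, 2 passed the threshold (4.65%), and over all probe sets 4.26% did. One was higher in SHR, where the background is 2.06%, and 1 was lower, where it is 2.2%. An unadjusted p below 0.05 was reached by 8 of the 43 (18.6%), against 21% of all probe sets. The values of the strains did not overlap on 3 of the 43 (6.98%), one each for Atf6, Hspb8 and Hspa9, against 6.13% of all. These shares lie near the background, so the counts show nothing particular to the members. The median difference, SHR minus WKY, was -0.02 over the members and 0.02 over all probe sets, and the median absolute difference was 0.08 against 0.12. A difference smaller than 0.2 in either direction was found for 36 of the 43 (83.7%), and for 73.1% of all probe sets. The standard error was 0.08 at the median over the members and 0.10 over all.

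**Figure D1:**
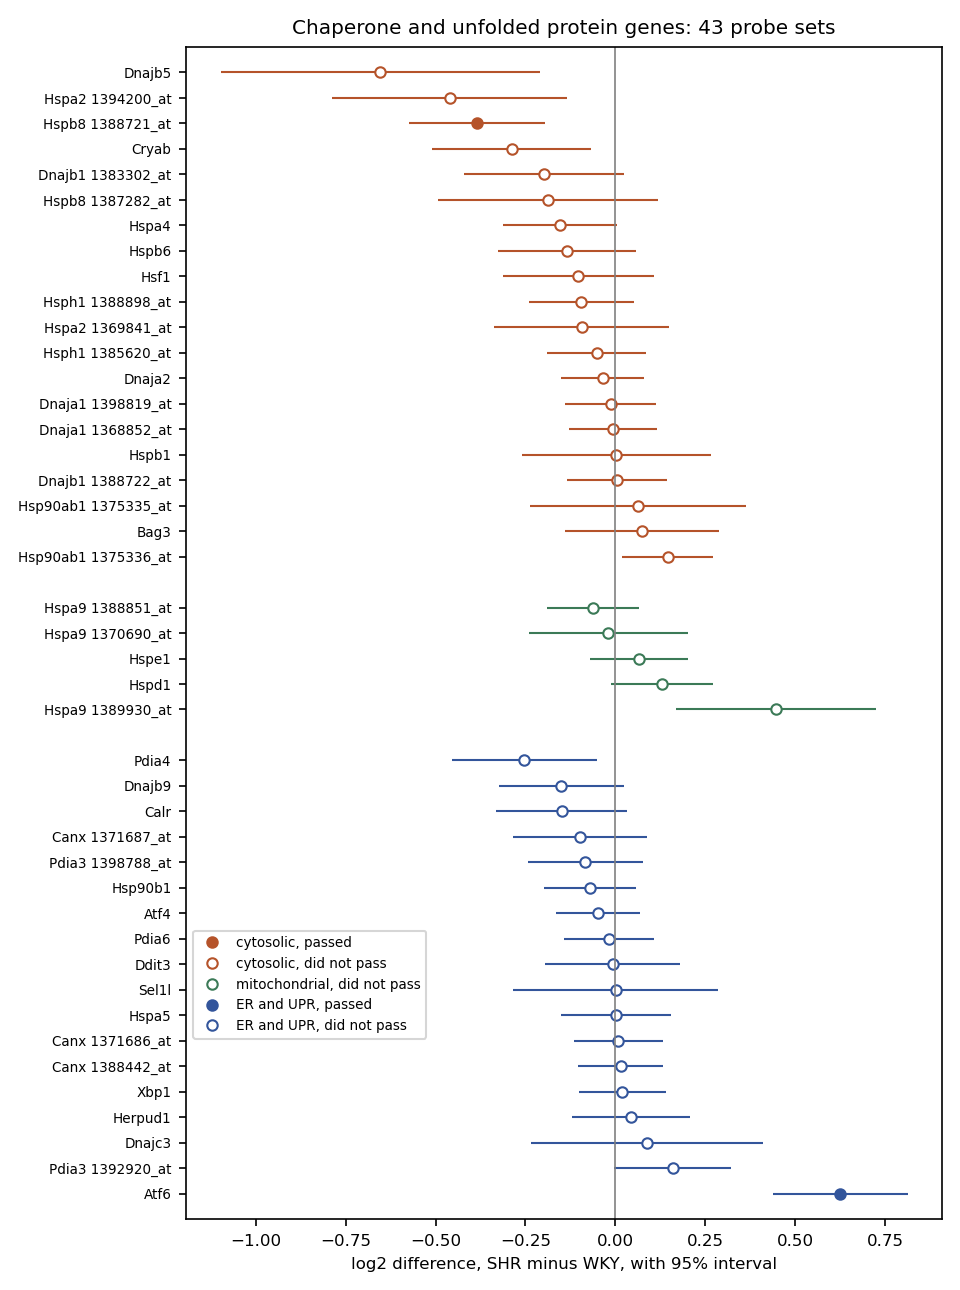
Log2 difference, SHR minus WKY, of the 43 kept probe sets of the 32 measured genes, with 95% intervals from the limma fit (5 arrays a strain), grouped by compartment; genes with several probe sets carry the probe set name, and filled points passed the adjusted threshold. Atf6 at 0.63 and one Hspb8 probe set at -0.38 are the filled points, and most of the others lie within 0.2 of 0.

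By compartment, the 20 probe sets of 14 cytosolic genes had a median difference of -0.09, with 15 below 0 and 5 above. The 5 probe sets of 3 mitochondrial genes had a median of 0.06. The 18 probe sets of 15 ER and UPR genes had a median of -0.00315, with 9 on either side of 0. Over all probe sets 54.0% of the differences lay above 0. Under quantile normalization the cytosolic split became 7 above and 13 below and the mitochondrial split 5 above and 0 below, while the ER and UPR split stayed at 9 and 9. The cytosolic list held the 1 lower call, the ER and UPR list the 1 higher call, and the mitochondrial list none, with 1 of its 5 at an unadjusted p below 0.05 in limma. The difference between compartments was not tested.

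**Figure D2:**
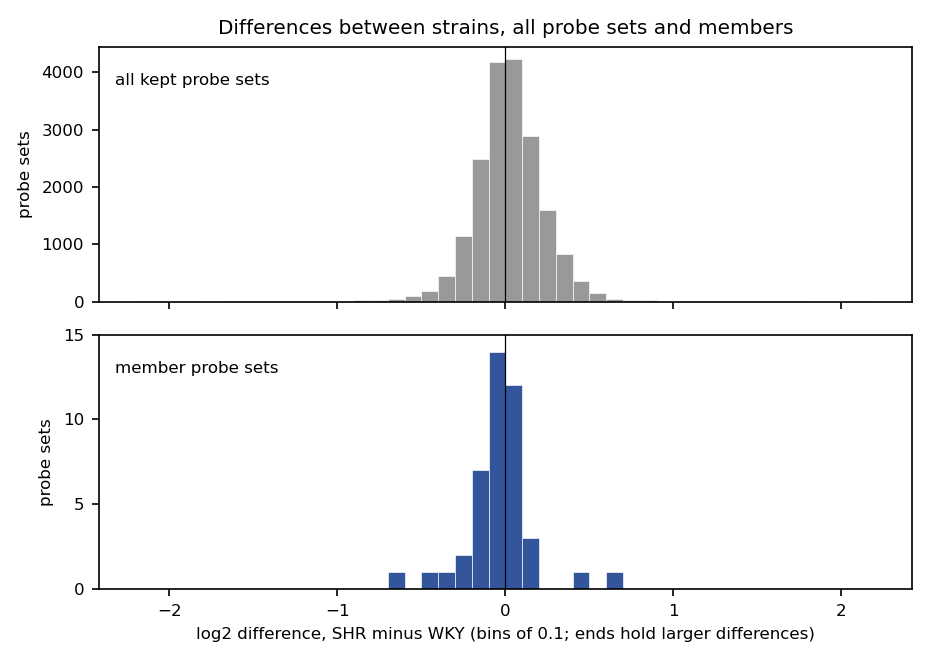
Number of probe sets (vertical axes) by log2 difference, SHR minus WKY, in bins of 0.1, for all 18846 kept probe sets above and the 43 of the chaperone and UPR genes below; the outermost bins hold larger differences. The members cluster around 0, with a median of -0.02 against 0.02 for all probe sets.

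Atf6 had the largest difference of the measured UPR sensors and transcription factors. On its bright probe set (1392475_at) the signal was 186, 185, 172, 157 and 170 on SHR arrays 1 to 5 and 121, 123, 103, 88.4 and 102 on WKY arrays 1 to 5. Every SHR array lay above every WKY array. The means were 174 ± 12.0 in SHR and 108 ± 14.5 in WKY (SD, n = 5). In the fit of log2(signal + 16), SHR was 1.54-fold higher, with a 95% interval of 1.36 to 1.76. The log2 difference was 0.63 ± 0.09 (SE), with an adjusted p of 0.000409 (limma). The other Atf6 probe set (1384957_at) was too dim for the filter, at 25.4, 30.6, 26.1, 19.5 and 14.9 in SHR and 17.0, 22.4, 25.9, 15.6 and 15.2 in WKY, and was not tested. Its strains overlapped. Atf6 thus rests on 1 tested probe set, and the files do not say which stretch of the transcript either probe set reads.

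The transcription factors that act beside ATF6 gave no call. Xbp1, whose messenger RNA is spliced by IRE1 into the active form, read 647, 658, 655, 610 and 677 in SHR and 618, 595, 635, 696 and 661 in WKY. The strains overlapped fully, the log2 difference was 0.02 ± 0.06, and its interval ran from -0.10 to 0.14. These signals do not separate spliced from unspliced Xbp1. Atf4, which is raised mainly at the level of translation when PERK or its sister kinases act, read 568, 591, 523, 548 and 549 in SHR and 549, 568, 605, 562 and 592 in WKY. Its difference was -0.05 ± 0.06, with overlapping strains. Ddit3, the proapoptotic factor CHOP that ATF4 induces, read 189, 189, 147, 188 and 206 in SHR and 168, 187, 197, 164 and 206 in WKY. Among the SHR arrays SHR 3 stood low, and the difference was -0.01 ± 0.09 (adjusted p = 0.973, limma). Ern1, which encodes IRE1, had no probe set of its own in the annotation.

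The ER chaperones and foldases, the best known products of the UPR, included 9 genes and 12 probe sets, none of which passed the test, with 5 above 0 and 7 below (4 and 8 under quantile normalization). Hspa5 (BiP), the ER HSP70 that also holds the sensors inactive, read 1009, 1206, 1081, 1135 and 1229 in SHR and 1011, 1054, 1097, 1273 and 1225 in WKY. Both means were 1132, with SDs of 90.1 in SHR and 112 in WKY. The strains overlapped fully, and the interval of the log2 difference was -0.15 to 0.16. Hsp90b1 (GRP94), the ER HSP90, read 585, 681, 664, 654 and 721 in SHR and 675, 730, 661, 707 and 696 in WKY, and its difference was -0.07 ± 0.06 (adjusted p = 0.538, limma). SHR 1 was the lowest of these arrays and the others overlapped.

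Pdia4 (ERp72), a protein disulfide isomerase, had the largest difference among the ER chaperones and foldases. It read 125, 106, 107, 110 and 122 in SHR and 122, 169, 127, 123 and 156 in WKY. WKY 2 and WKY 5 stood above the rest, while the other WKY arrays lay close to the highest SHR arrays. The log2 difference was -0.25 ± 0.10 and did not pass (adjusted p = 0.138, limma). Calr (calreticulin), a lectin chaperone that binds calcium, read 273, 339, 279, 254 and 305 in SHR and 320, 335, 277, 380 and 306 in WKY. Its difference was -0.15 ± 0.09 with overlapping strains (adjusted p = 0.342, limma). Dnajb9 (ERdj4), a J protein that delivers substrates to BiP, read 416, 339, 316, 378 and 382 in SHR and 391, 368, 373, 459 and 449 in WKY. WKY 4 and WKY 5 were the highest, the strains overlapped, and the difference was -0.15 ± 0.08. Dnajc3 (p58IPK), another ER J protein, read 39.9, 34.8, 81.4, 53.8 and 51.5 in SHR and 56.8, 47.4, 43.8, 46.9 and 39.6 in WKY, and SHR 3 alone stood high.

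The remaining ER members gave no call. Canx (calnexin), the membrane lectin chaperone, gave 0.01, 0.01 and -0.10 on its 3 probe sets. Pdia3 (ERp57), the partner of the lectin chaperones, gave -0.08 ± 0.08 on its brighter and 0.16 ± 0.08 on its dimmer probe set (adjusted p = 0.558 and 0.247, limma), and Pdia6 gave -0.02. The members of ER-associated degradation were Herpud1 and Sel1l, both parts of the HRD1 ubiquitin ligase complex, and they gave 0.04 ± 0.08 and 0.0011 ± 0.13. The 6 genes with a complete ER stress element had differences from -0.15 (Calr) to 0.09 (Dnajc3) on their brightest probe sets, with a median of 0.00501 and none past the threshold. Over all probe sets 4.26% passed, so the absence of a call among these 6 genes shows nothing particular to them. Other genes with the element were not examined, and an effect of Atf6 on any of them was not tested.

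**Figure D3:**
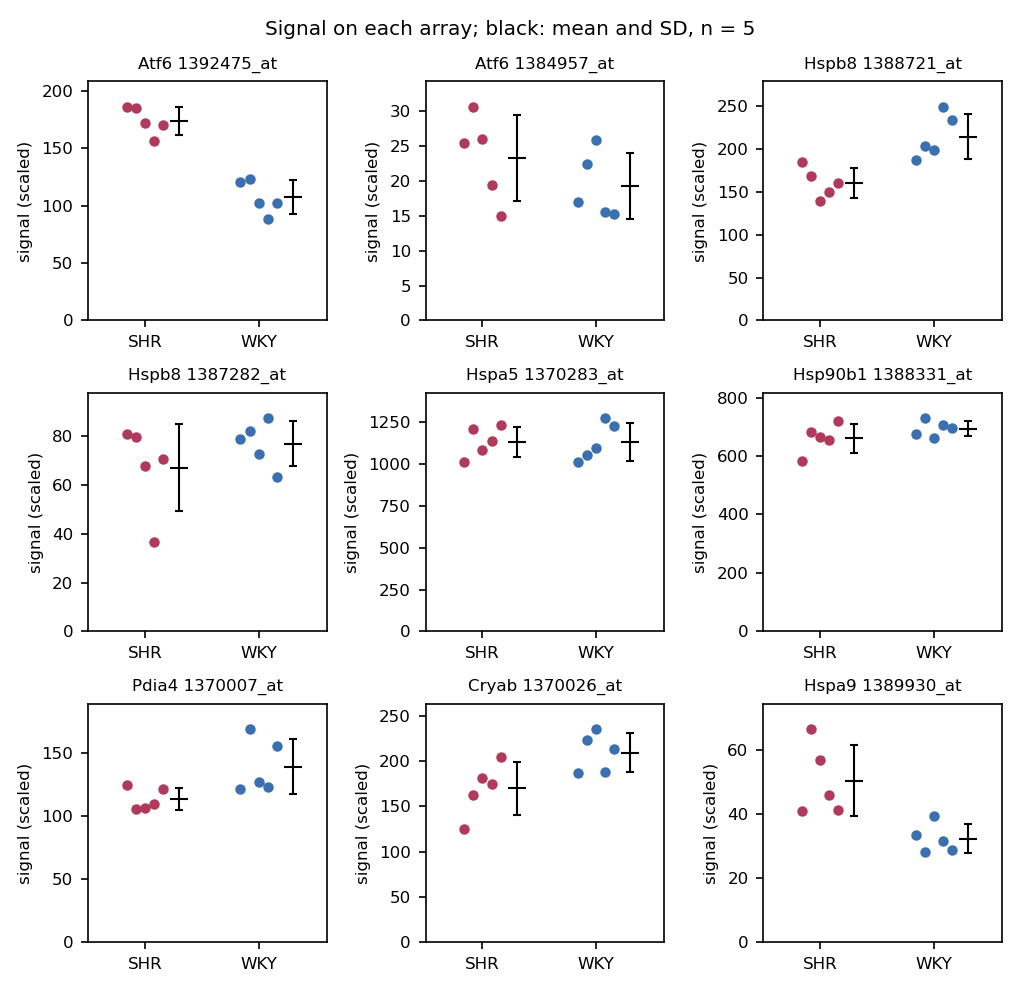
Scaled signal (vertical axis, starting at 0) on each of the 5 SHR and 5 WKY arrays for 9 probe sets, in the order of the arrays within a strain; the black marks are the mean and SD. The strains separate for Atf6 1392475_at, Hspb8 1388721_at and Hspa9 1389930_at and overlap in the other panels.

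Among the small heat shock proteins, Hspb8 was lower in SHR, and 4 of the 5 probe sets of the 4 genes had differences below 0 under each of the scalings run. HSPB8 works with BAG3 in delivering misfolded protein to autophagy. On its brighter probe set (1388721_at) it read 184, 168, 139, 149 and 160 in SHR and 187, 203, 199, 249 and 234 in WKY. The strains did not overlap, although SHR 1 and WKY 1 lay close together. The means were 160 ± 17.3 and 214 ± 26.0, so WKY was 1.31-fold higher, and the log2 difference was -0.38 ± 0.09 with an adjusted p of 0.0195 (limma). The second probe set (1387282_at) read 80.7, 79.5, 67.6, 36.8 and 70.7 in SHR and 78.6, 82.2, 72.7, 87.3 and 63.3 in WKY. There the strains overlapped, SHR 4 alone stood low, and the difference was -0.19 ± 0.14 (adjusted p = 0.487, limma).

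The Hspb8 call did not hold under every setting. Without WKY 4 the difference was -0.33 (adjusted p = 0.0695), without WKY 5 it was -0.35 (adjusted p = 0.0674), without SHR 2 and SHR 3 together it was -0.35 (adjusted p = 0.0723), and in a fit that adjusts for the arrays' median signals it was -0.21 (adjusted p = 0.506, all limma). The mean of both probe sets gave -0.29 (adjusted p = 0.122, limma). The Atf6 difference passed in every alternative run, with the highest adjusted p, 0.044, under that adjustment. The median signal itself was 44.2 to 49.8 in SHR and 39.6 to 45.7 in WKY, and its part in either result was not tested beyond this fit.

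The other small heat shock proteins gave no call. Cryab (alpha B-crystallin), a chaperone abundant in glia and muscle, read 125, 163, 182, 175 and 205 in SHR and 187, 224, 235, 188 and 213 in WKY. SHR 1 was the lowest array and SHR 5 lay within the WKY range. The difference was -0.29 ± 0.10 and did not pass (adjusted p = 0.126, limma). Hspb6 (HSP20), best known from muscle, gave -0.13 ± 0.09 (adjusted p = 0.418, limma). Hspb1 (HSP27), a classic product of heat shock, read 148, 212, 153, 137 and 172 in SHR and 142, 130, 188, 215 and 150 in WKY. Its strains overlapped fully and the difference was 0.0031 ± 0.12.

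Of the cytosolic HSP70 and HSP110 genes, Hspa2, Hspa4 and Hsph1 were measured, and their 5 probe sets all had differences below 0, also under quantile and 75th percentile scaling, with none past the threshold. Hspa2, an HSP70 that is most abundant in testis, read 53.4, 38.3, 29.5, 56.7 and 65.4 in SHR and 66.7, 76.9, 51.9, 88.3 and 75.9 in WKY on its brighter probe set (1394200_at). WKY 3 lay within the SHR range and the other WKY arrays lay above it. The difference was -0.46 ± 0.15 (adjusted p = 0.103, limma), and the other Hspa2 probe set gave -0.09 ± 0.12. On the brighter one it was -0.23 without SHR 2 and SHR 3 (adjusted p = 0.427) and -0.06 with the adjustment for the arrays' median signals (adjusted p = 0.949, limma). Hspa4, an HSP110 family member that exchanges nucleotide on HSP70, read 298, 259, 236, 278 and 262 in SHR and 260, 325, 290, 318 and 299 in WKY, with a difference of -0.15 ± 0.08. The strains overlapped. Hsph1 (HSP105), another exchange factor, gave -0.09 and -0.05 on its 2 probe sets. The stress-inducible Hspa1b, the constitutive Hspa8 and Hsp90aa1 appeared only on probe sets that the annotation gives to several symbols, so no value is given for them.

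Hsp90ab1, the constitutive cytosolic HSP90, read 2221, 2422, 2453, 2343 and 2233 in SHR and 1897, 2240, 2032, 2112 and 2276 in WKY on its brighter probe set (1375336_at). The SHR arrays lay higher, with WKY 2 and WKY 5 inside their range. The difference was 0.15 ± 0.06 (adjusted p = 0.173, limma), and the second probe set gave 0.06 ± 0.14. Dnajb5, a cytosolic J protein, had the most negative difference of all members, -0.65 ± 0.21, and did not pass (adjusted p = 0.0893, limma). It read 39.9, 12.8, 66.4, 38.3 and 22.8 in SHR and 52.5, 69.3, 71.7, 63.7 and 50.0 in WKY. SHR 3 lay within the WKY range and the other SHR arrays below it. Without SHR 3 the difference was -0.84 (adjusted p = 0.0131) and without SHR 2 it was -0.46 (adjusted p = 0.183). Without any other single array it missed the threshold too, and offsets of 1 and 64 gave -0.93 and -0.35 (adjusted p = 0.103 and 0.0813, limma). The other J proteins differed less: Dnaja1 gave -0.01 and -0.01, Dnaja2 -0.04, and Dnajb1 (HSP40), the main inducible partner of HSP70, 0.01 and -0.20. Bag3, a co-chaperone and the partner of HSPB8, gave 0.07 ± 0.10, and Hsf1 gave -0.10 ± 0.10 (adjusted p = 0.592, limma).

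The 10 measured genes with the 2-unit heat shock element had differences from -0.38 (Hspb8) to 0.13 (Hspd1), 5 above 0 and 5 below, with a median of -0.00228. Hspb8 was the 1 of the 10 that passed, where 4.26% of all probe sets did. The 3 measured genes with the 3-unit element, Hsph1, Hspd1 and Hspe1, gave -0.09, 0.13 and 0.06. The signs were thus mixed among the measured genes with the same element. Apart from Hspb8 none passed, so no direction is read from the others.

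The mitochondrial chaperones gave no call. Hspd1 (HSP60), the matrix chaperonin, read 1210, 1356, 1507, 1344 and 1317 in SHR and 1099, 1191, 1309, 1206 and 1340 in WKY. WKY 5 and WKY 3 lay within the SHR range, and the difference was 0.13 ± 0.07 (adjusted p = 0.285, limma). Hspe1 (HSP10), its lid, read 1059, 1109, 1050, 1191 and 1286 in SHR and 1048, 1060, 1194, 1066 and 1064 in WKY, with a difference of 0.06 ± 0.06 and overlapping strains. Hspa9 (mortalin), the mitochondrial HSP70, had 3 kept probe sets that did not move together. The brightest (1388851_at) read 492, 442, 483, 466 and 517 in SHR and 481, 473, 496, 511 and 549 in WKY. Its difference was -0.06 ± 0.06 (means 480.2 ± 28.1 in SHR and 502 ± 29.9 in WKY), and the second (1370690_at) gave -0.02 ± 0.10.

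The dimmest kept Hspa9 probe set (1389930_at) read 41.2, 66.6, 56.8, 46.0 and 41.3 in SHR and 33.6, 28.3, 39.5, 31.6 and 28.8 in WKY. The strains did not overlap, and SHR 2 and SHR 3 stood highest. The difference was 0.45 ± 0.13 and just missed the threshold (adjusted p = 0.0642, limma). It passed without SHR 5 (adjusted p = 0.0498) and without the intensity trend (adjusted p = 0.0443), and missed in the other settings run. The difference was 0.29 without SHR 2 and SHR 3 (adjusted p = 0.31), and 0.23 with the adjustment for the arrays' median signals (adjusted p = 0.684, limma). Of the 9 members with several kept probe sets, 5 had 1 sign on all of them and 4 (Dnajb1, Hspa9, Canx and Pdia3) did not.

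The spread within a strain differed widely among members. Dnajb5 varied most, with a pooled SD of 0.43 log2 units, followed by an Hsp90ab1 probe set (1375335_at, 0.31) and Hspa2 (1394200_at, 0.29). Dnaja2 and Atf4 varied least, with 0.06 each. The medians over all probe sets were 0.16 within SHR and 0.14 within WKY. So Dnaja2 and Atf4 give the narrowest intervals, and Dnajb5 the widest.

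Known targets of a factor were then followed array by array, as the median log2 deviation from the mean of all 10 arrays. For 13 probe sets of 9 known HSF1 targets, the deviation was -0.08, 0.02, -0.00147, -0.07 and 0.04 on SHR arrays 1 to 5. On WKY arrays 1 to 5 it was -0.15, -0.05, 0.05, 0.06 and 0.09. The spread among WKY arrays was as wide as any gap between strains. WKY 1 was the lowest WKY array for 10 of the 13 probe sets and WKY 5 the highest for 8. For 11 probe sets of 11 known ER stress targets, the deviation was -0.08, 0.03, -0.06, -0.03 and 0.01 in SHR. It was -0.0035, -0.00407, -0.02, 0.05 and 0.07 in WKY, where WKY 4 and WKY 5 were high. The strain means differed by -0.02 for the HSF1 targets, which turned to 0.01 under quantile normalization, and by -0.04 for the ER stress targets, which became -0.01 under it. No test was made of these scores.

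**Figure D4:**
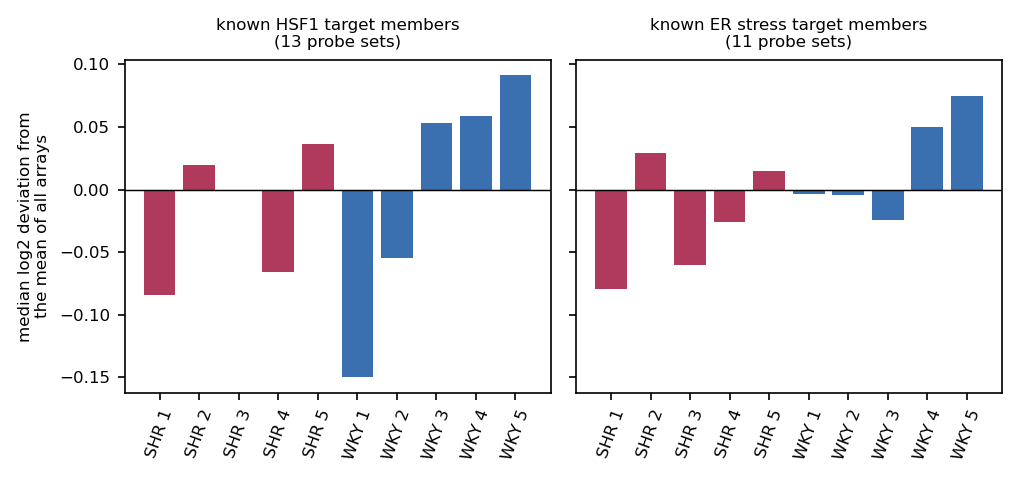
Median log2 deviation from the mean of all arrays (vertical axis) on each array, for 13 probe sets of known HSF1 targets (left) and 11 of known ER stress targets (right). WKY 1 is lowest on the left at -0.15 and WKY 5 highest in both panels, at 0.09 and 0.07.

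The wider chaperone and stress response lists held 183 other genes, of which 163 had a kept probe set (205 probe sets). Among the 205, 1 was higher in SHR and 1 lower, and 34 had an unadjusted p below 0.05 (limma), both below the shares of all probe sets. The median difference was -0.01. No probe set passed among 55 of other, mainly cytosolic, chaperones and co-chaperones, 16 of the CCT chaperonin and prefoldin, or 5 of other heat shock factors. None passed among 31 of other ER-associated degradation genes, or 34 of other UPR and integrated stress response genes. Those lists held 7, 1, 0, 3 and 6 probe sets with an unadjusted p below 0.05 (limma). The lists that held the calls had 10 of 40 (other ER chaperones and foldases) and 7 of 24 (other mitochondrial chaperones and proteases), against 21% of all probe sets. These counts include the called probe sets themselves, so no enrichment is read from them. The CCT and prefoldin list had 14 of its 16 differences below 0, with a median of -0.04, and 9 of the 16 under quantile normalization.

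The 1 higher call was Txndc5, a protein disulfide isomerase of the ER, among 40 probe sets of other ER chaperones and foldases. It read 395, 363, 388, 409.5 and 389 in SHR and 271, 261, 249.7, 261 and 251 in WKY. The strains lay far apart, with a 1.47-fold difference (log2 0.56 ± 0.06, adjusted p = 1.25e-05, limma). The 1 lower call was a probe set of Clpb (1394820_at), a mitochondrial disaggregase, among 24 of other mitochondrial chaperones and proteases. It read 160, 135, 175, 175 and 213 in SHR and 261, 211, 235, 276 and 237 in WKY, so SHR 5 overlapped WKY 2. The difference was -0.48 ± 0.10 (adjusted p = 0.00936, limma). The other Clpb probe sets gave 0.21 and -0.33, so the gene has no single direction.

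The genes that act on or with ATF6 did not pass. Mbtps1 and Mbtps2, the Golgi proteases that release it, gave 0.07 ± 0.07 and -0.09 ± 0.12, and its paralog Atf6b gave 0.02 ± 0.12. Among known ER stress genes, Hyou1 gave 0.30 ± 0.13 on 1 probe set (adjusted p = 0.178, limma), and its other probe set is not described. Manf gave 0.23 ± 0.09 (adjusted p = 0.142, limma), Creld2 0.0025 ± 0.09 and Sdf2l1 -0.01 ± 0.07. Eif2ak3, which encodes PERK, gave -0.01 ± 0.09. Asns, an amino acid synthetase that ATF4 induces, gave -0.26 ± 0.08 with strains that did not overlap and an adjusted p of 0.0797 (limma).

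In whole tissue, fewer cells of a type and less RNA per cell cannot be told apart, so the marker lists are set beside the 2 called members. Calls are counted over kept probe sets, while summed signals are over all probe sets of a list, also those too dim for the filter. Of 15 astrocyte probe sets none passed. The summed signal of the astrocyte list was 17170 to 20350 in SHR and 16470 to 18220 in WKY. Of 17 oligodendrocyte probe sets 2 were lower, both of Mobp, with sums of 10480 to 12840 and 9830 to 12630. Of 14 neuron probe sets 1 was higher (Snap25), with sums of 15320 to 16690 and 13850 to 15570. These sums overlapped between strains. Of 12 microglia and macrophage probe sets 5 were lower, with 10 differences below 0 and 2 above, from -0.52 to 0.51. The sums of that list were 2777 to 2838 in SHR and 3233 to 3521 in WKY, which did not overlap.

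Muscle markers were also counted, since small heat shock proteins are abundant in muscle, and their sums too are over all probe sets of a list. Of 5 kept smooth muscle and pericyte probe sets 1 was lower, that of Mylk. The sums of that list were 457 to 561 in SHR and 829.5 to 930.0 in WKY. They include the Mylk probe set (150.4 ± 7.57 in SHR and 569.9 ± 46.0 in WKY), the only 1 of the 5 with a difference below 0. The other 4 (Des, Rgs5, Acta2 and Myh11) had differences above 0, none past the threshold. Of 2 kept striated muscle probe sets 1 was higher (Acta1). The sums of the striated muscle list were 257 to 356 in SHR and 205 to 261 in WKY. Of 8 endothelial probe sets 1 was lower, of 5 choroid plexus and ependymal probe sets 2 were higher, and the 1 kept red blood cell probe set did not pass. Of 7 immediate early gene probe sets 1 was higher. The part of these markers in the Hspb8 and Atf6 results was not tested. For the labelled tissue, Th, Dbh, Phox2a, Hoxa5, Hoxb4 and Prlh, markers of the dorsal medulla and its noradrenergic neurons, passed the filter, with 1 of the 6 (Prlh) lower in SHR. Slc6a2 and Tlx3 of the same list did not pass it. Of the forebrain and cerebellum markers with a probe set, Emx1, Neurod6, Tbr1, Gabra6 and Drd1 did not pass the filter, and 2 did: Ppp1r1b, lower in SHR (-0.55 ± 0.12, adjusted p = 0.0171, limma), and Pcp2 (0.32 ± 0.16, adjusted p = 0.26, limma). Correlations between arrays were 0.947 to 0.988.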

How the data were processed

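Total RNA of the NTS was amplified and hybridised to 1-colour arrays, per the labels' protocols. The authors deposited linear intensity values, 1 for each probe set on an array. Per the submitters' processing notes, GCOS 1.2 was used; the sources used here do not give its background step or detection calls. In the deposited intensity table, the mean after trimming 2% at each end was 100 on every array, so no further scaling was applied.

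Probe sets were named from the platform annotation: 20826 had 1 symbol, 436 several and 9780 none, and 57 controls were left out. Probe sets were kept where 5 or more arrays reached the 40th percentile of their array (18846 of 31042). Strain was the single term of a limma 3.58.1 (R 4.3.3) fit of log2(signal + 16) with a trended eBayes. The fit was tested on simulated data. The members and gene lists were chosen with earlier results of these data known, and no list was tested as a set.

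Values on every array are given for members that passed, did not overlap or were among the 5 largest differences of their compartment, and for the leading member of each class; a gene is represented by its brightest kept probe set. Wider-list genes other than Txndc5 and Clpb were named after their values were seen. Alternatives were quantile or 75th percentile scaling, offsets of 1 and 64, no filter or the 60th percentile, eBayes without trend or robust, array weights, a replicate block, the array median as a covariate, other choices of probe set, and leaving out arrays. The promoter motifs were searched in RefSeq sequences of GRCr8 and no positions of probe sets are printed.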

Additional observations from a re-analysis of the deposited data

Results flagged for a closer look

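An array was set against the other 4 of its strain for each of the 43 member probe sets, and 4 of 86 such groups had 1 array farther from its neighbours than Dixon's 95% critical value of 0.71 allows; chance gives about 1 in 20 groups. Hspb8 on its dimmer probe set (1387282_at) read 36.7 on SHR 4, against 67.6 to 80.7 on the other SHR arrays. Hspe1 read 1190 on WKY 3, against 1050 to 1070 on the other WKY arrays. Sel1l read 124 on SHR 2, against 70.2 to 77.3 on the other SHR arrays. Ddit3 read 147 on SHR 3, against 188 to 206 on the other SHR arrays.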

How the results depend on the processing

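Atf6 passed in all 14 alternatives (0.47 to 0.70) and in all 10 fits without 1 array (0.57 to 0.67). Hspb8 kept its direction in all of these (-0.43 to -0.21) and lost its call in 3 alternatives and in 2 of the 10 fits without 1 array, as given with its values. The cause of these changes was not tested.

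The numbers in the titles pair no arrays that the labels describe: deviations of same-numbered arrays correlated at 0.049, 0.139, 0.134, 0.038 and 0.282, and 3 of 5 SHR arrays correlated best with their own number. With the replicate block, 1210 probe sets passed in place of 803, and members lower were 3 (Hspa2 and Dnajb5 joined, adjusted p = 0.0311 and 0.0479, limma). Wider-list probe sets were then 2 higher and 3 lower. With the median signal as a covariate 206 passed, and 0 members and 0 wider-list probe sets were lower. By gene, 438 passed on the brightest probe set and 406 on the mean of probe sets, where 0 members and 0 wider-list genes were lower. Without SHR 2 and SHR 3, 495 passed, 2 wider-list probe sets were higher, and the 1 lower member was Dnajb5 (adjusted p = 0.0286, limma). Array weights gave 2 members lower, with Dnajb5 added, and 2 wider-list probe sets higher. No filter gave 3 wider-list probe sets higher, and eBayes without the trend 2 members higher. Without 1 array, 450 to 945 passed, with 1 to 2 members higher, 0 to 2 lower, and 1 to 3 wider-list probe sets higher and 1 to 2 lower. The lowest counts were 510 without SHR 2, 452 without WKY 4 and 450 without WKY 5.

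Among differences that missed the threshold, signs turned as follows. Under quantile normalization, Hspa9 (1388851_at) gave 7e-04, Dnajc3 -0.00223, Atf4 0.00269 and Ddit3 0.0193. Under array weights, Hspb1 gave -0.0194, Hspa5 -0.0174 and Ddit3 0.0363. Under the covariate, Hspa9 gave 0.0417, Dnajb9 0.0667, Dnajc3 -0.0299 and Ddit3 0.0819. The mean of probe sets gave 0.122 for Hspa9. Without SHR 2 and SHR 3, Hspb1 gave -0.0874, Hspa5 -0.00858 and Ddit3 0.0742. Without 1 array, Hspb1 ran from -0.0842 to 0.096, Hspa5 from -0.0368 to 0.0453, Ddit3 from -0.0476 to 0.0644, Dnajc3 from -0.0506 to 0.184 and Xbp1 from -0.00594 to 0.0493.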

Other observations

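The 10 tested genes on either side of the called members, taken from the gene order of GRCr8 after the calls were seen, held 3 other calls, where 4.26% of all probe sets passed. Around Hspb8, 26 probe sets held 1 lower call, on one of 3 probe sets of Wsb2, a substrate adaptor of a ubiquitin ligase (279 ± 25.9 in WKY and 209.7 ± 29.2 in SHR, log2 difference -0.39 ± 0.09, adjusted p = 0.0179, limma, n = 5). The genes next to Hspb8, Suds3 and Prkab1, gave 0.10 and -0.05, and -0.11. Around Atf6, 26 probe sets held 1 higher call, on one of 2 probe sets of Tomm40l, a relative of the mitochondrial import channel (57.01 ± 11.4 in SHR and 32.5 ± 6.25 in WKY, 0.59 ± 0.13, adjusted p = 0.0165, limma, n = 5). They also held 1 lower call, on one of 2 probe sets of Pcp4l1 (139 ± 7.15 in SHR and 177 ± 23.1 in WKY, -0.31 ± 0.08, adjusted p = 0.0425, limma, n = 5). The other Tomm40l probe set gave -0.29 ± 0.15 and the other Pcp4l1 probe set 0.06 ± 0.10. The genes next to Atf6, Olfml2b and Dusp12, gave 0.21 and 0.08 and did not pass.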
